A study of Mus musculus with 3 samples.

Results

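The genes described here are 44 regulators of the mouse cell cycle, listed by name as cyclins, cyclin-dependent kinases (CDKs), CDK inhibitors, CDC25 phosphatases with the WEE1 and PKMYT1 kinases and the CKS subunits, E2F and DP factors, pocket proteins and checkpoint kinases. They are 44 of the 21887 genes that encode proteins on the 19 autosomes and the sex chromosomes in RefSeq (GRCm38), and all 44 were found there. The libraries came from Pan02, an established mouse pancreatic cancer cell line. They fall into 3 groups of 1 library each: MYC CUT&Tag in Pan02 cells stably expressing POH1-Flag, Flag CUT&Tag in the same POH1-Flag cells, and MYC CUT&Tag in Pan02 cells with the vector. CUT&Tag cuts and tags DNA beside the protein that an antibody finds, and POH1 is the product of Psmd14, a deubiquitinase of the proteasome. The labels do not say whether the POH1-Flag line is a clone or which promoter drives the transgene. With 1 library a group there is no replicate check and no test between the cell lines, so each difference below is between libraries.

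Cyclins bind CDKs and switch them on, and CDK inhibitors hold these complexes back. D cyclins with CDK4 or CDK6 and E cyclins with CDK2 phosphorylate the pocket proteins RB1, RBL1 and RBL2, which releases E2F factors and lets S phase genes be transcribed. WEE1 and PKMYT1 keep CDK1 inactive until CDC25 phosphatases remove the inhibitory phosphates, and ATR, ATM, CHEK1 and CHEK2 pass on signals from damaged or stalled DNA. MYC binds E-box DNA with its partner MAX and is known to promote cell cycle entry in many cell types.

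The deposited lists held 22647 MYC peaks in POH1-Flag cells, 2936 Flag peaks in POH1-Flag cells and 12175 MYC peaks in vector cells. The lowest local background of a list, taken as its genome-wide background, was 0.826 reads for MYC in POH1-Flag cells, 0.946 for Flag and 0.845 for MYC in vector cells. Per kb of fragment length, taken as the shortest peak of each list (202 bp for MYC in POH1-Flag cells, 233 bp for Flag and 219 bp for MYC in vector cells), it was 1.06 times the vector value for MYC in POH1-Flag cells and 1.05 times for Flag. Which MYC library counts as deeper therefore depends on this division. A pileup here is the number of reads over a peak's summit, worked back from the deposited fold enrichment and −log10 p, and its median was 15 reads for MYC in POH1-Flag cells, 15 for Flag and 14 for MYC in vector cells. A gene was counted as having a peak when a summit lay within 1 kb of either of its ends. Of 8 ductal and epithelial marker genes, Krt7 and Sox9 had a MYC peak in POH1-Flag cells and 1 had one in vector cells. All 5 acinar and all 4 leukocyte markers lacked a MYC peak in both lists. Of 5 mesenchymal markers, 2 had a MYC peak in each cell line. A peak near a marker is not a measure of its expression.

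To show the DNA under some of these peaks, promoter windows from RefSeq (GRCm38.p6, 250 bases before to 50 after a start) were read for the 32 members that the table holds. Of the 23 members described in full below, 8 had in a window the E-box CACGTG or an E2F-type motif (TTTCGCGC, TTTGGCGC or TTCCCGCC, on either strand). Printed here are the 5 of these whose same window also held the MYC summit of the POH1-Flag list. They lie at chr10:127063285-127063584 on the plus strand (Cdk4), chr13:100730893-100731192 on the minus strand (Cdk7), chr13:29986014-29986313 on the minus strand (E2f3), chr2:157204485-157204784 on the minus strand (Rbl1) and chr9:36726609-36726908 on the minus strand (Chek1). Capitals mark the E-box in Cdk4 and Cdk7 and the E2F-type motif in the other three (in E2f3 and Chek1 it reads as GGCGGGAA, TTCCCGCC on the opposite strand), each sequence being written 5′ to 3′ on the gene's own strand.
Cdk4: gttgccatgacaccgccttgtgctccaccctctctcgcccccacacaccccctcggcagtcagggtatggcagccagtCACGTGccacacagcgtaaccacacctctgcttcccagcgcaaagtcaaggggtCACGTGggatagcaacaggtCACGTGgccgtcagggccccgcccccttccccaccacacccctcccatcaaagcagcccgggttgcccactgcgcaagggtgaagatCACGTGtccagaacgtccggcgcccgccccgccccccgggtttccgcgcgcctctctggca
Cdk7: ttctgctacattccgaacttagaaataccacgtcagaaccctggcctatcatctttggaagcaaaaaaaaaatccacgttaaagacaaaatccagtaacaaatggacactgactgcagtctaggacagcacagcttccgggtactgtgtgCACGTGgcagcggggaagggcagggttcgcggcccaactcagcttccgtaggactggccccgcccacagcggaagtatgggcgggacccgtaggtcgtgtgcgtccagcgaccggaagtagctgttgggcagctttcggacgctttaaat
E2f3: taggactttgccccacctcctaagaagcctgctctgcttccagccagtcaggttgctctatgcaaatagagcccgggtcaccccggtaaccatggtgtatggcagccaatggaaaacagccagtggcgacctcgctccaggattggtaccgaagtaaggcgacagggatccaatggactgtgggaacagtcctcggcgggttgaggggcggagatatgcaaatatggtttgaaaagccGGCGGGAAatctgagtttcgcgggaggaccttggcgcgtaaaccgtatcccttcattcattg
Rbl1: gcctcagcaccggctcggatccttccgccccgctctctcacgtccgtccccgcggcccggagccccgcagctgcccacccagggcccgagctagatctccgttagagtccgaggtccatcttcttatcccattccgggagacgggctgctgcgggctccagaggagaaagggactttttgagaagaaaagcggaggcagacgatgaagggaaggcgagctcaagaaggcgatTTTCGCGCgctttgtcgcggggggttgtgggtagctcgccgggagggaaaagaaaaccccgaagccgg
Chek1: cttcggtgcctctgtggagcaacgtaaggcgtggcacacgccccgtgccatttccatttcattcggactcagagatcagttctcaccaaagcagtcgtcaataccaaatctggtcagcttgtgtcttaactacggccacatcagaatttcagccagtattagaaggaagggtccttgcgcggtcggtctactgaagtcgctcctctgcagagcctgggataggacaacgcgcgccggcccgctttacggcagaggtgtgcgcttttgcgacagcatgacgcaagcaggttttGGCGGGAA

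The Cdk4 window held 4 copies of CACGTG, whose first bases lay 172, 118, 98 and 11 bases before the start, and the MYC summit lay 99 bp before the start in POH1-Flag cells and 60 bp before it in vector cells. In the Cdk7 window the E-box began 100 bases before the start, with summits 45 bp into the gene in POH1-Flag cells and 133 bp before the start in vector cells. The E2F-type motif began 12 bases before the start of E2f3, 18 bases before that of Rbl1 and 42 bases after that of Chek1. Over the 32 members with a window, 6 held CACGTG (18.8%), against 8.91% of 17492 protein-coding genes, and the 6 were Cdk4, Cdk6, Cdk7, Cdkn2c, E2f3 and Tfdp1. An E2F-type motif stood in 7 of 32 members (21.9%), against 4.41% of all genes. The motif CCAAT stood in 20 of 32 (62.5%, against 42.3%), the cell cycle homology motif TTTGAA in 8 (25.0%, against 18.5%), the E-box variant CACGCG in 7 (21.9%, against 13.7%) and CATGTG in 3 (9.38%, against 13.2%), all on either strand. A gene with several starts counts once if any window matches, and a match is only a description of these letters. The windows of the members had a median GC content of 64.0%, against 56.3% for windows of all genes, which bears on how often such motifs occur, and its part in these counts was not tested.

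MYC peaks lay near most of the 44 genes. In POH1-Flag cells 40 of the 44 (90.9%) had one, against 40.0% of all protein-coding genes, and in vector cells 26 of the 44 (59.1%) had one, against 28.2% of all genes. In POH1-Flag cells 0 of the 44 had a Flag peak near an end, a class that held 0.196% of all genes. The Flag summit nearest to an end of any member was 5330 bp away, at Ccnf, and Cdk6 was the member with a Flag peak inside it, of 8 reads and 50945 bp from the nearer end. In neither MYC list did 3 members have a peak near an end: the D cyclin genes Ccnd2 and Ccnd3 and the CDK inhibitor gene Cdkn1c.

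**Figure D1:**
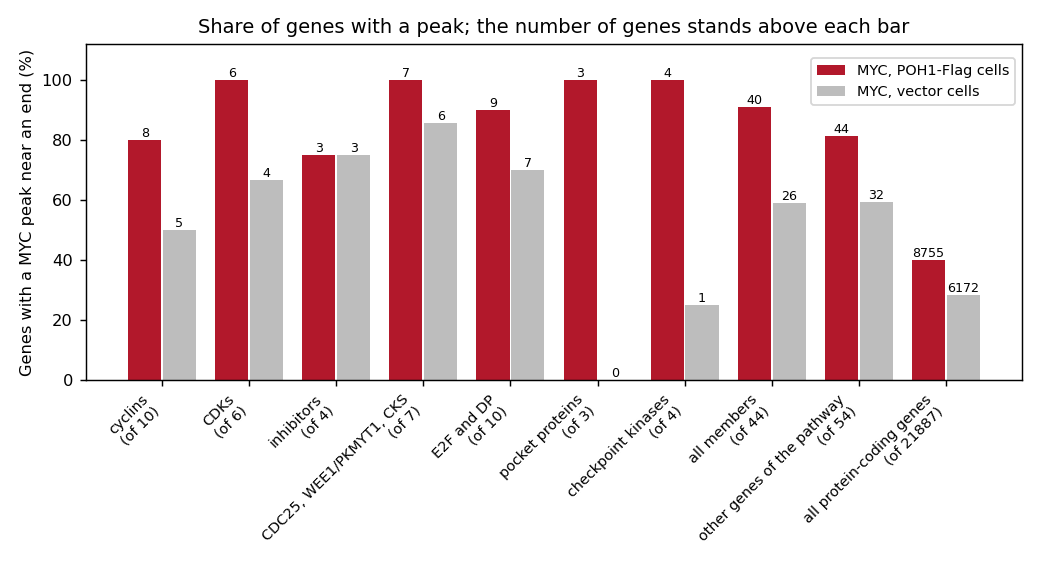
Share of genes (%, from 0) with a MYC summit within 1 kb of either gene end, by class of gene, in POH1-Flag cells (left bar of each pair) and vector cells (right bar), with the number of genes above each bar. All 3 pocket protein genes and 4 checkpoint kinase genes had a peak in POH1-Flag cells, against 0 and 1 in vector cells, while the inhibitors had 3 of 4 in both.

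A vector peak near an end was lacking at 18 members, and 15 of these (83.3%) carried a POH1-Flag peak, against 17.2% of all genes without a vector peak. These 15 were Ccne2, Ccnb2, Ccnh, Cdk2, Cdk6, Cdc25c, E2f4, E2f7, Tfdp2, all of Rb1, Rbl1 and Rbl2, and Chek1, Chek2 and Atr. At 14 of them the POH1-Flag peak overlapped no vector peak, and its pileup was 11 to 24 reads with a median of 14, and the median was also 14 reads over the 2676 genes with a POH1-Flag peak near an end that had no vector peak there and none overlapping. Of gene-end peaks, 95% held 9 or more reads in the vector list and 10 or more in the POH1-Flag MYC list. The part of such limits in these 14 peaks was not tested. As an alternative, the POH1-Flag MYC list was cut to its strongest peaks, at the length of the vector list. Then 11 members had a peak in POH1-Flag cells only, against 1363 of all protein-coding genes. A MYC peak in POH1-Flag cells stood near 34 of the members, against 31.6% of all genes. Among members with a vector peak, E2f2 alone (1 of 26) had none near an end in POH1-Flag cells, against 1.99% of all genes with a vector peak.

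Where a MYC peak overlapped in both lists, the pileups could be set against each other after division by the genome-wide background of each library. This was so at 26 members, and POH1-Flag cells over vector cells gave a ratio above 1 at 26 of 26. With pileups divided by the background per kb of fragment it was above 1 at 25 of 26 (Tfdp1 falling below 1), against 96.5% of all genes with a shared site. With the median of all shared sites set to 1 it was above 1 at 13 of 26, against 50.5% of all such genes, a share that this scaling fixes near the middle. With the genome-wide background the median log2 ratio of the members was 0.71 (95% order-statistic interval 0.64 to 0.98), a ratio of 1.64. Over all 5992 genes with such a site the median was 0.72 (0.71 to 0.73), a ratio of 1.65, and 98.5% were above 1. The authors' fold enrichment over the local background was instead higher in vector cells at Ccnd1, Ccnf, Cdk9, Cdkn2d, Pkmyt1, Cks1b, E2f6 and Tfdp1. No share over all genes is given for that order. The 5th and 95th percentiles of all these genes were 0.16 and 1.30 on the log2 scale, with Tfdp1 and E2f6 below them and E2f8 and Ccna2 above. A ratio of 2 or more was found at 6 of 26 members (23.1%), against 20.1% of all genes with a shared site, and an exact conditional Poisson 95% interval above 1 at 10 of 26 (38.5%), against 26.0%. With the background per kb of fragment the interval was above 1 at 5 of 26 (Ccna2, Cdkn1b, Wee1, E2f3 and E2f8), against 15.3% of all genes, and no longer at Ccne1, Ccne2, Cdc25a, Cks2 and E2f1. A ratio of 2 or more was then found at 3 of 26 members, against 751 of the 5992 genes. All Poisson intervals here cover counting error only. The order-statistic intervals of the medians treat each gene as a separate draw from the same pair of libraries. They therefore do not cover variation between libraries or between cell lines.

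**Figure D2:**
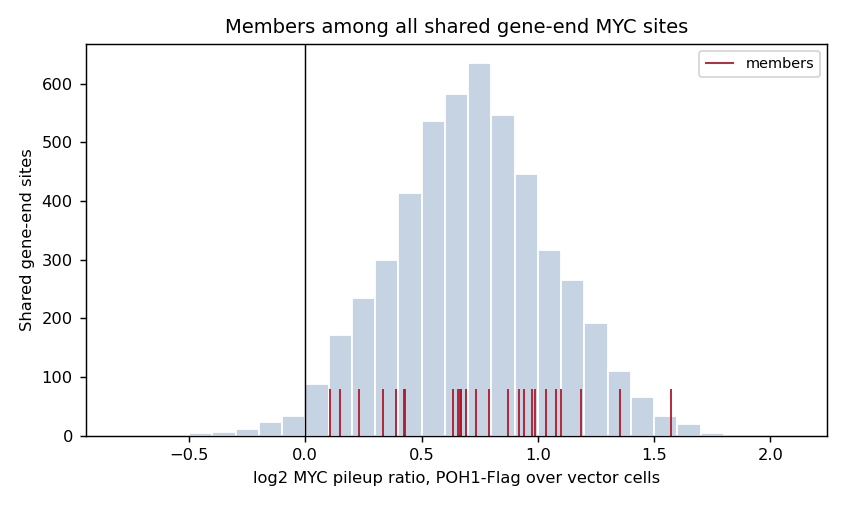
Histogram of the log2 ratio of MYC pileups, POH1-Flag over vector cells, at all 5051 shared gene-end sites (blue bars, number of sites), with the 26 members as red ticks and a black line at 0. The members spread from 0.11 to 1.57, and dividing by the background per kb of fragment puts Tfdp1 below 0.

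Among the cyclins, 8 of 10 had a MYC peak in POH1-Flag cells, against 5 of 10 in vector cells. Both E cyclins, the partners of CDK2 at the start of S phase, had intervals just above 1, which held 1 with the background per kb of fragment and, for Ccne1, also with unscaled pileups. At Cdc25a, too, the interval held 1 with unscaled pileups. Ccne2 (chr4:11190433-11204779) had 56 reads in POH1-Flag cells, the highest pileup of any member, 978 bp inside the gene. It counts as lacking a vector peak only by the 1 kb limit, because a vector peak of 36 reads lay 1048 bp from the end and overlapped it, a ratio of 1.59 (1.03 to 2.49). Ccne1 (chr7:38097984-38107490) had 30 reads in POH1-Flag cells and 16 in vector cells, a ratio of 1.92 (1.01 to 3.77), with summits 205 and 141 bp before the start.

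Ccna2 (chr3:36564865-36573038), the cyclin of S phase and G2, had 32 reads in POH1-Flag cells and 11 in vector cells. Its ratio of 2.98 (1.46 to 6.55) was the largest of the 26 members. The summits lay 865 and 864 bp from the gene end, and the site was also within 1 kb of an end of Bbs7, so the peak cannot be given to one of these genes. The mitotic cyclins had fewer reads, Ccnb1 with 20 reads in POH1-Flag cells and 13 in vector cells (ratio 1.57, 0.745 to 3.44), and Ccnb2 with 13 reads in POH1-Flag cells and no vector peak. Ccnf, whose product belongs to an SCF ubiquitin ligase, had 32 reads in POH1-Flag cells and 25 in vector cells (1.31, 0.752 to 2.31). Ccnh, the partner of CDK7, had 14 reads in POH1-Flag cells and no vector peak.

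The D cyclins, which pair with CDK4 and CDK6, differed among themselves. Ccnd1 (chr7:144929931-144939831) had 37 reads in POH1-Flag cells and 30 in vector cells, a ratio of 1.26 (0.759 to 2.12) that was not distinguishable from 1 at this depth, at summits 190 and 374 bp outside the gene in POH1-Flag and vector cells. The local background there was 14.7 times the genome-wide one in POH1-Flag cells and 9.87 times in vector cells. Over all genes with a peak the median was 3.01 times and the 95th percentile 7.07 times in POH1-Flag cells, and 2.15 and 4.77 times in vector cells. The authors' fold enrichment over this local background was 2.89 in POH1-Flag cells and 3.32 in vector cells, the opposite order to the pileups. The fold was also higher in vector cells at Ccnf, Cdk9, Cdkn2d, Pkmyt1, Cks1b, E2f6 and Tfdp1. At all other members with a peak near an end in both lists it was higher in POH1-Flag cells. The part of the local background in the small Ccnd1 ratio was not tested. A second peak stood at the other end of Ccnd1, with 17 reads in POH1-Flag cells and 14 in vector cells (1.24, 0.576 to 2.72).

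Ccnd2 (chr6:127125162-127152188) had inside it only weak peaks, of 10 reads in POH1-Flag cells and 8 in vector cells, whose summits lay 1345 and 2307 bp from the gene end. Ccnd3 (chr17:47505051-47599689) had no summit within 1 kb of a gene end but did have a MYC peak at an internal start listed by RefSeq. That peak had 21 reads in POH1-Flag cells and 13 in vector cells (ratio 1.65, 0.790 to 3.59), with summits 119 and 114 bp after the start. A further Ccnd3 peak of 24 reads, 6193 bp after the first start, had no overlapping vector peak.

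**Figure D3:**
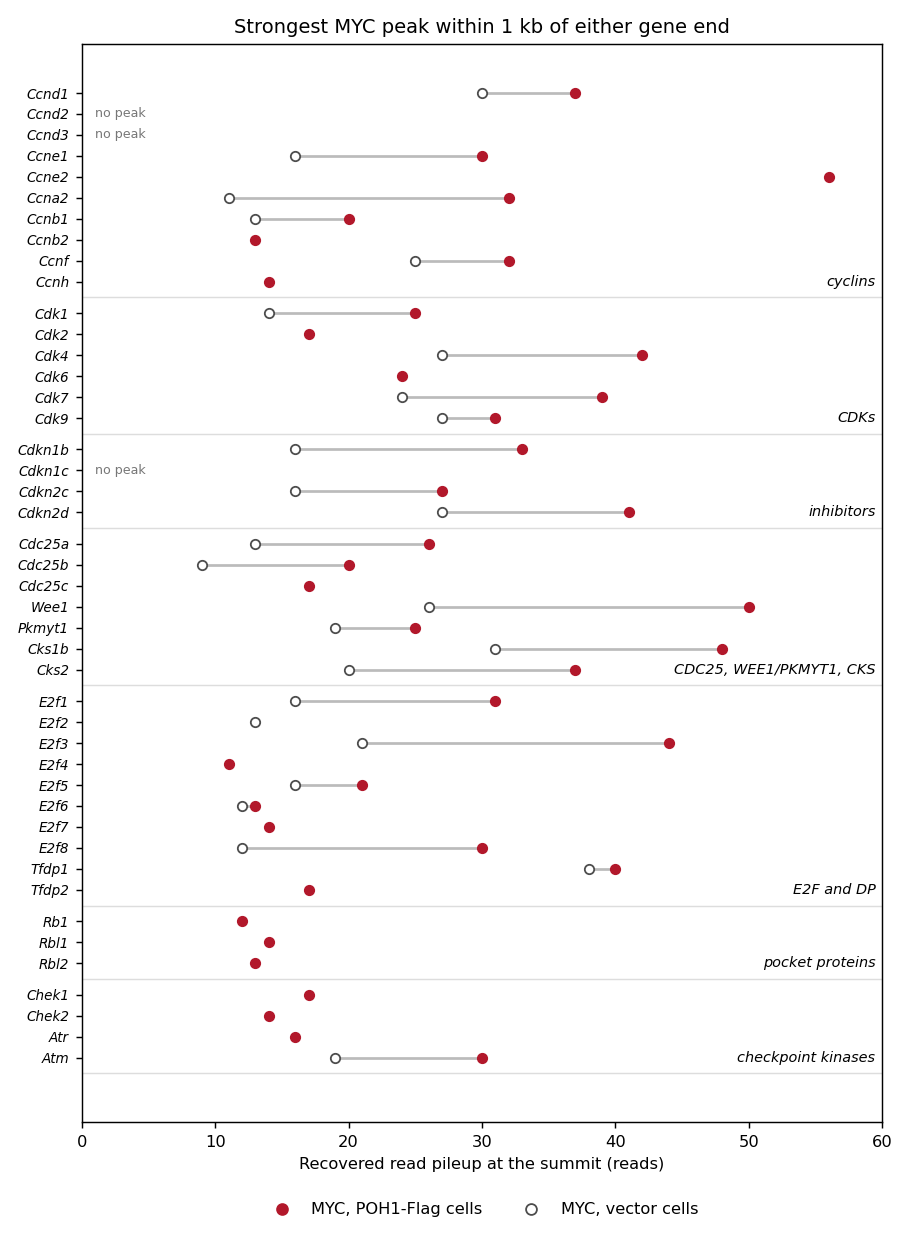
Recovered read pileup (reads) of the strongest MYC peak within 1 kb of either gene end for each of the 44 members, grouped by class, in POH1-Flag cells (filled red) and vector cells (open grey), joined where both lists have a peak. Rb1, Rbl1 and Rbl2 show 12 to 14 reads in POH1-Flag cells and no vector point, and Ccne2 has no vector point because its overlapping vector peak lay beyond 1 kb.

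All 6 CDK genes had a MYC peak in POH1-Flag cells and 4 of 6 had one in vector cells. Cdk4 (chr10:127063535-127067288), the kinase of the D cyclins, had 42 reads in POH1-Flag cells and 27 in vector cells, a ratio of 1.59 (0.959 to 2.68), over the E-boxes printed above. Cdk7 (chr13:100697024-100730942), which activates other CDKs and belongs to TFIIH, had 39 reads in POH1-Flag cells and 24 in vector cells (1.66, 0.975 to 2.89). Cdk1 (chr10:69335146-69352912), the kinase of mitotic entry, had 25 reads in POH1-Flag cells and 14 in vector cells (1.83, 0.914 to 3.80), with summits 78 bp after the start in POH1-Flag cells and 44 bp before it in vector cells. No CDK gene had an interval above 1. Cdk9, a kinase of transcription elongation, had 31 reads in POH1-Flag cells and 27 in vector cells (1.17, 0.679 to 2.05).

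The other two CDK genes had a peak near an end in POH1-Flag cells only. Cdk2, the partner of cyclins E and A, had 17 reads at a summit 87 bp into the gene. The nearest vector summit to Cdk2 lay 1491 bp from the nearer gene end, and that peak did not overlap. Cdk6, which pairs with D cyclins, had 24 reads 612 bp inside the gene and further peaks of 19 and 16 reads, 63 and 572 bp after the start that its promoter window gives. In the vector list the nearest summit to either end of Cdk6 was 13011 bp away. Deep inside Cdk6 a site did occur in both lists, with 13 reads in POH1-Flag cells and 10 in vector cells (ratio 1.33, 0.539 to 3.39).

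The inhibitor genes had a peak at 3 of 4 in each cell line. Cdkn1b (chr6:134920401-134925525), which encodes p27, had 33 reads in POH1-Flag cells and 16 in vector cells, a ratio of 2.11 (1.13 to 4.11). The summits there were the farthest apart of the shared sites, 332 bp, being 127 bp into the gene in POH1-Flag cells and 205 bp before the start in vector cells. Cdkn2d (chr9:21288459-21291421), the INK4 inhibitor p19, had 41 reads in POH1-Flag cells and 27 in vector cells (1.55, 0.933 to 2.63), at summits -101 and -98 bp from the start. Near its other end a second peak had 35 reads in POH1-Flag cells and 18 in vector cells (1.99, 1.10 to 3.73). Cdkn2c (chr4:109660876-109666756), the INK4 inhibitor p18, had 27 reads in POH1-Flag cells and 16 in vector cells (1.73, 0.897 to 3.43), at summits -237 and -175 bp from the start. At Cdkn1c, which encodes p57, the nearest MYC summit lay 40508 bp from a gene end in POH1-Flag cells and 87998 bp in vector cells.

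The regulators of CDK phosphorylation and the CKS subunits had a peak at 7 of 7 in POH1-Flag cells and 6 of 7 in vector cells, with a median log2 ratio of 0.95 over 6 shared sites. Wee1 (chr7:110122059-110143299), whose kinase restrains mitotic entry, had 50 reads in POH1-Flag cells and 26 in vector cells, a ratio of 1.97 (1.20 to 3.29), at summits 196 and 138 bp outside the gene. Cks2 (chr13:51645232-51650662), a CDK-binding subunit, had 37 reads in POH1-Flag cells and 20 in vector cells (1.89, 1.07 to 3.44), at summits -163 and -146 bp from the start. A second Cks2 site, 935 bp from the other end, had 32 reads in POH1-Flag cells and 12 in vector cells (2.73, 1.37 to 5.82). Cks1b (chr3:89415472-89418291), needed by the ligase SCF-SKP2 to recognise p27, had 48 reads in POH1-Flag cells and 31 in vector cells (1.58, 0.988 to 2.57). Its summits lay -197 and -48 bp from the start, at a site also within 1 kb of an end of Shc1.

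The phosphatase genes Cdc25a and Cdc25b had ratios of at least 2. Cdc25a, which acts on CDK2 and CDK1, had 26 reads in POH1-Flag cells and 13 in vector cells (2.05, 1.01 to 4.34). Cdc25b had 20 reads in POH1-Flag cells and 9 in vector cells, a ratio of 2.27 whose interval held 1 (0.990 to 5.67). Cdc25c had 17 reads in POH1-Flag cells and no vector peak. Pkmyt1 had 25 reads in POH1-Flag cells and 19 in vector cells (1.35, 0.712 to 2.59), at a site also within 1 kb of an end of 1520401A03Rik.

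**Figure D4:**
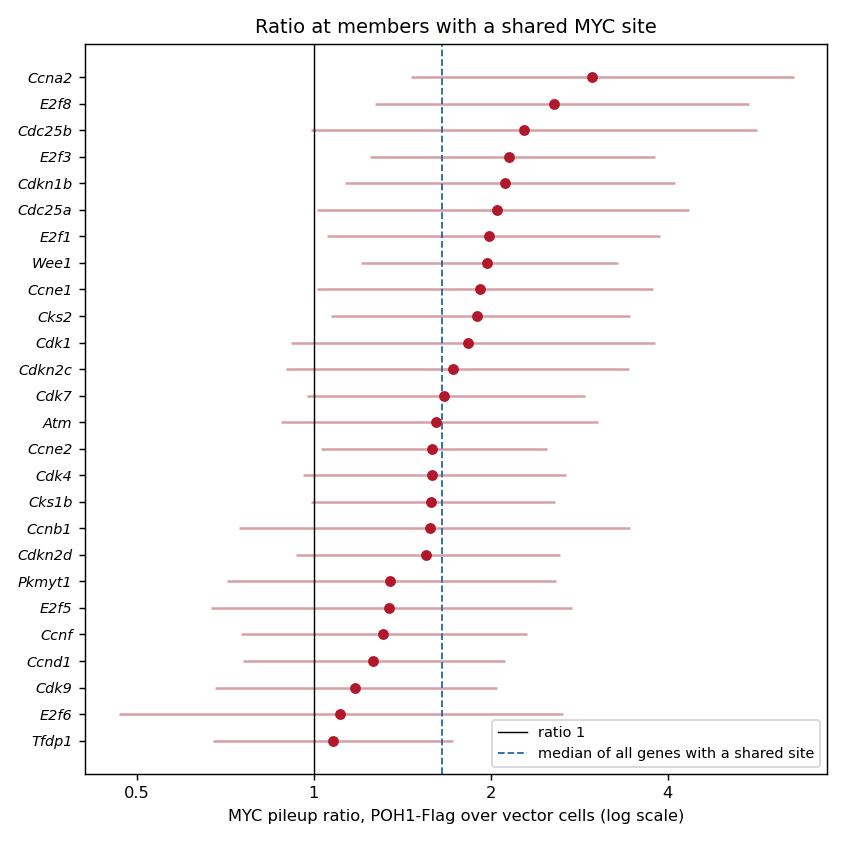
Ratio of MYC pileups, POH1-Flag over vector cells, on a log axis for the 26 members with an overlapping peak in both lists, with exact conditional Poisson 95% intervals (counting error only), ordered by ratio. All points lie above 1 (black line), on both sides of the median of all genes with a shared site (dashed, 1.65), and 10 intervals lie wholly above 1. With the background per kb of fragment 1 point (Tfdp1) lies below 1 and 5 intervals lie above it, and with the median of all shared sites set to 1 the counts are 13 and 0. Over all genes with a shared site, 96.5% of ratios and 15.3% of intervals lie above 1 with the background per kb. With the median of shared sites set to 1 these shares are 50.5% and 0.05%.

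Of the E2F and DP genes, 9 of 10 had a MYC peak in POH1-Flag cells and 7 of 10 in vector cells. E2f1 (chr2:154559400-154569892), a driver of S phase genes, had 31 reads in POH1-Flag cells and 16 in vector cells, a ratio of 1.98 (1.05 to 3.88), at summits 155 and 118 bp outside the gene. E2f3 (chr13:29906575-29986064) had 44 reads in POH1-Flag cells and 21 in vector cells (2.14, 1.25 to 3.80), at the window printed above. At a second start of E2f3 a further peak had 27 reads in POH1-Flag cells and 15 in vector cells (1.84, 0.945 to 3.72), at -198 and -94 bp from that start. E2f8, a repressor of E2F targets, had 30 reads in POH1-Flag cells and 12 in vector cells (2.56, 1.27 to 5.49). Its summits lay 414 and 297 bp after the nearest RefSeq start, which is 891 and 774 bp inside the gene.

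Tfdp1 (chr8:13338725-13378448), which encodes the DP1 partner that E2Fs need to bind DNA, had the lowest ratio of the 26 members at 1.08 (0.673 to 1.73), with 40 reads in POH1-Flag cells and 38 in vector cells. Its vector peak was the strongest of any member in its own list, at the 99.4th percentile by −log10 q of gene-end peaks, against the 89.7th percentile in POH1-Flag cells. E2f6, a repressor that acts without pocket proteins, had 13 reads in POH1-Flag cells and 12 in vector cells (1.11, 0.466 to 2.66), and E2f5 had 21 in POH1-Flag cells and 16 in vector cells (1.34, 0.668 to 2.75). Peaks in POH1-Flag cells only were weak at E2f4, E2f7 and Tfdp2, with 11, 14 and 17 reads. The E2f4 summit lay 301 bp outside the gene and within 1 kb of an end of Elmo3, so that peak cannot be given to one of these genes. At E2f2 the vector peak of 13 reads lay 350 bp into the gene, among the weakest of its list (7.76th percentile). Deeper in E2f2, a site present in both lists had 20 reads in POH1-Flag cells and 19 in vector cells (1.08, 0.546 to 2.13).

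The pocket protein genes, whose products bind and restrain E2Fs, had a peak at 3 of 3 in POH1-Flag cells and 0 of 3 in vector cells. Rb1 (chr14:73192858-73325951) had 12 reads, its summit 32 bp outside the gene. Rbl1 (chr2:157145893-157204534), which encodes p107, had 14 reads at 155 bp before the start, and Rbl2 (chr8:91070057-91123844), which encodes p130, had 13 reads at 107 bp into the gene. Rbl1 and Rbl2 each had a second peak near the start, of 12 and 9 reads. In the vector list the nearest summits to an end lay 59417 bp from Rb1, 74646 bp from Rbl1 and 10167 bp from Rbl2. All 3 POH1-Flag peaks were in the lower part of their list, between the 20.0th and 26.5th percentiles of gene-end peaks by −log10 q.

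The checkpoint kinase genes had a peak at 4 of 4 in POH1-Flag cells and 1 of 4 in vector cells. Atm (chr9:53437122-53536828), which responds to double-strand breaks, had 30 reads in POH1-Flag cells and 19 in vector cells (1.62, 0.880 to 3.04), at a site 3 bp from the gene end that also lay by Npat. Atr (chr9:95857597-95953217), which responds to stalled replication, had 16 reads in POH1-Flag cells, Chek1 (chr9:36708482-36726658), the kinase ATR activates, had 17, and Chek2, the kinase downstream of ATM, had 14, all without a vector peak. Their nearest vector summits were 166228, 41216 and 29598 bp away. The sites at Atr and Chek2 also lay within 1 kb of the ends of 1700065D16Rik and Hscb.

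Where the strand was given, most MYC summits lay near gene starts. Of the 30 members that had a strand in the promoter table and a peak in POH1-Flag cells, 30 had the strongest summit at the start side and 0 at the far end, and of 21 such members in vector cells 21 did. The summit lay within 250 bp of a RefSeq start at 23 of 30 in POH1-Flag cells and 17 of 21 in vector cells, and it lay before the start at 21 members and after it at 9 in POH1-Flag cells, and at 17 and 4 in vector cells. Those counted before the start include Cdk6 and Tfdp2, whose POH1-Flag summits lay -2277 and -62159 bp from the nearest start in the promoter table, so 28 of 30 were within 1 kb of one. These counts leave out the 12 members without a promoter window. No shares over all genes are given for them, so they do not set the members apart from other genes. Distance from the nearer gene end had a median of 159 bp over 40 members in POH1-Flag cells, against 138 bp over all genes with a peak, and of 144 bp over 26 members in vector cells, against 154 bp. It was at most 250 bp at 30 of 40 members in POH1-Flag cells, against 74.9% of all genes with a peak. In vector cells it was so at 19 of 26, against 72.2%. The peaks of the members had a median width of 701 bp in POH1-Flag cells (609 bp over all genes) and 553 bp in vector cells (481 bp). At the 26 shared sites the summits of the 2 lists were 1 to 332 bp apart, with a median of 60 bp. The peak lay within 1 kb of another protein-coding gene's end at 7 of the 41 members with a peak, and no such share is given for all genes.

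**Figure D5:**
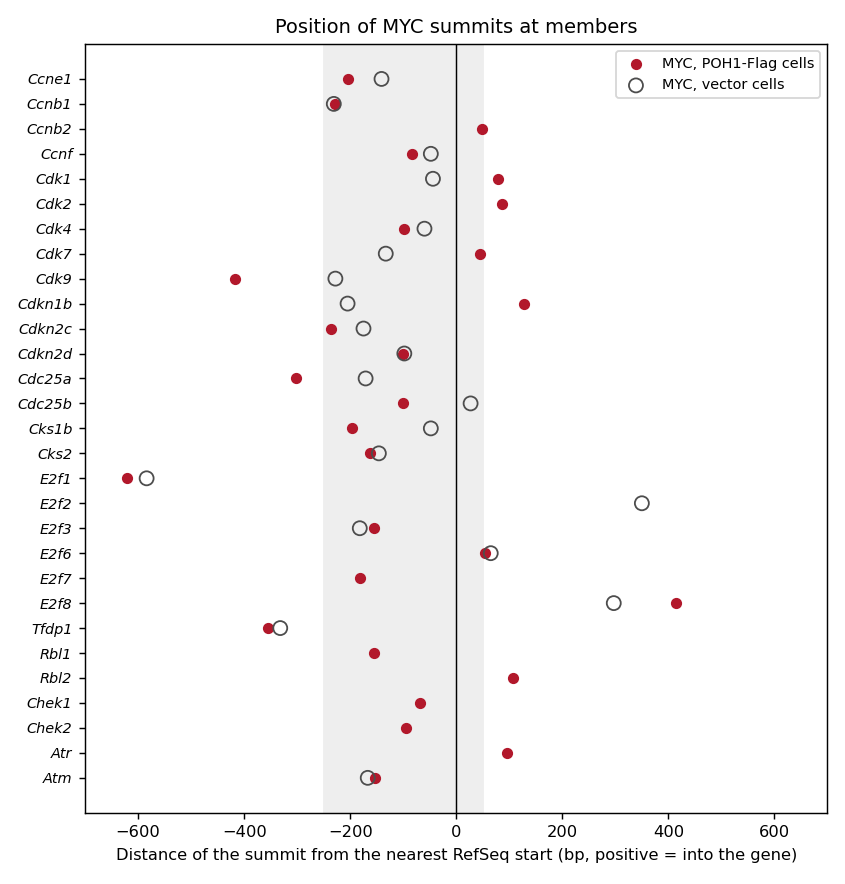
Distance (bp) of the strongest MYC summit near each member from the nearest RefSeq start, with positive values into the gene, for members with a promoter window and a summit within 1 kb of a start, in POH1-Flag cells (filled red) and vector cells (open grey). The grey band is the printed promoter window, from 250 bp before to 50 bp after the start, and most summits fall in or close to it, with E2f1 at -621 bp in POH1-Flag cells and -584 bp in vector cells.

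Other genes of the pathway were counted in the same way. Of 54 such genes, 44 (81.5%) had a MYC peak in POH1-Flag cells, against 40.0% of all genes, and 32 (59.3%) in vector cells, against 28.2%. A POH1-Flag peak stood at 12 of the 22 without a vector peak (54.5%), against 17.2% of all such genes. Among the MuvB, MYBL2 and FOXM1 genes, which drive late cell cycle transcription, 6 of 7 had a peak in POH1-Flag cells and 2 of 7 in vector cells. Mybl2 had 21 reads, Foxm1 12, Lin9 14 and Lin37 22, all with a peak near an end in POH1-Flag cells only. The nearest vector summits lay 1491 bp from an end of Mybl2 and 2968 bp from an end of Lin37, and those peaks did not overlap. Checkpoint partners had a peak at 11 of 12 in POH1-Flag cells and 8 of 12 in vector cells, other cyclins at 10 of 14 in POH1-Flag cells and 9 of 14 in vector cells, and other CDK genes with the CAK subunit at 11 of 13 and 8 of 13. Cell cycle ubiquitin ligase genes had one at 5 of 6 in POH1-Flag cells and 4 of 6 in vector cells. The inhibitor gene Cdkn1a, which encodes p21, had no peak near an end but had 2 MYC peaks inside it in each list. The strongest of these had 25 reads in POH1-Flag cells and 19 in vector cells. Cdkn3 had 16 reads in POH1-Flag cells and 9 in vector cells (1.82, 0.757 to 4.67). The median log2 ratio over 32 shared sites of these genes was 0.88, against 0.72 over all genes with one, and 8 of 32 (25.0%) had a ratio of 2 or more, near the 20.1% of all genes.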

How the data were processed

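MACS2 2.2.7.1, BWA 0.7.17-r1188, Trim Galore 0.6.6, FastQC 0.11.9 and the build GRCm38/mm10 are named by the submitters' processing notes. The sources used here do not give their roles, settings, any control library or the treatment of duplicates. Each deposited list holds the peaks of 1 library. The authors' fold enrichment is a linear ratio of each summit to its local background, beside the authors' −log10 p and −log10 q. The deposited score restates the −log10 q and was not used. Apart from the order of folds given beside the pileup ratios and beside Ccnd1, these values describe or rank peaks within a list only.

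For each peak the pileup k and the local background λ that satisfy both the Poisson tail beyond k and fold = (k + 1)/(λ + 1) were found. All peaks (100%) gave a whole k within 0.01 of a read step. The lowest λ of a list was taken as its genome-wide background. Kept duplicates would make the intervals too narrow. Library totals were not used here. Shared sites were MYC peaks that were each other's strongest overlapping partner (1 bp or more). Python 3.11.15, numpy 2.4.6, scipy 1.17.1 and pandas 2.3.3 were used, and the steps were tested on simulated data.

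Genes came from RefSeq (GRCm38.p6). Full values were given for the 3 members of each class with the highest −log10 q in POH1-Flag MYC, plus E2f1, Ccnd1, Ccnd2, Cdk4, Cdkn1b and Rb1. Pileups were given for all other members. The members, the lists and this rule were chosen with earlier results of these data known. The internal starts, second peaks, local backgrounds and the choice of printed windows were described after the values were seen. Alternatives were stricter peak thresholds, other distances, gene starts alone, equal list lengths, other pileup scalings and other pairings of peaks.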

Additional observations from a re-analysis of the deposited data

How the results depend on the processing

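Counts of members with a MYC peak depended on the peak threshold. At a −log10 q of at least 10, 21 members had one in POH1-Flag cells and 10 in vector cells, while over all genes the shares were 20.1% and 6.91%. The count of members at a pileup ratio of 2 or more was 2 of 21 at a −log10 q of at least 5 in both lists, against 515 of 4032 genes. It was 3 of 26 with pileups scaled by the background per kb of fragment, against 751 of 5992 genes. When pileups were scaled so that the median of all shared sites was 1, it was 0 of 26, against 7 of 5992 genes. The median log2 ratio was 0.60 with the background per kb of fragment (0.61 over all genes), and it changed sign, to -0.0062, under the scaling to the median of shared sites, which takes out the shift that all sites have in common. Peaks were also counted within 1 kb of a RefSeq start, an alternative chosen after seeing the data. There, 9 of the 32 members in the promoter table had a peak in POH1-Flag cells only, against 2304 of 17492 genes. A vector peak stood at 22 of the 32 members, against 5315 of the 17492 genes. By the rule of gene ends, 10 of the 32 members had a peak in POH1-Flag cells only. Under the other alternatives each count stayed within 1.5 times its value and the median within its interval. Counted under the same alternatives after seeing the data, the ratio was above 1 at 25 of 26 members and its interval at 5 with the background per kb, and at 13 and 0 with the median of shared sites set to 1. Over all genes with a shared site the shares were 96.5% and 15.3% with the background per kb, and 50.5% and 0.05% with that median set to 1. Of 103 values of single genes under other scalings and pairings, 99 stayed within their counting interval. No library could be left out, because each group has 1, and no paired analysis was possible because each group has 1 library. Pileups of 9 to 56 reads limit each single ratio.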
